A study of Mus musculus with 20 samples.

Results

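The comparison described here is between the 7 lung metastases with the highest and the 7 with the lowest level of the long non-coding RNA Neat1, which together are all 14 metastases among 20 sequenced mouse tumours. The metastases were ranked by Neat1 in CPM (a gene's reads relative to a fixed total of reads in the library, after TMM scaling, which evens out differences in composition), and the ranking was cut after the 7th. The members of each group were thus chosen by their measured Neat1 level, the Neat1 values are a description with no test, and Neat1 was left out of every table that was tested. The groups are not treatments, and no label of the study separates them.

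The study sequenced total RNA of 6 primary tumours, numbered 1 to 6, and of 14 lung metastases, each matched by its title with 1 of those primaries. Every sample carries the genotype label "Mixed background" and the source label of a mouse tumour tissue. The labels used here name no allele, agent, strain, age, sex or anatomical site of the primaries, and the series title places the tumours among sarcomas. A primary and the metastases matched with it are called a set, so that 2-3 stands for metastasis 3 of set 2, 5-x for the metastasis of set 5 that has no number, and P4 for primary tumour 4. No label says that the metastases of a set came from separate animals, so the p-values below measure only the spread between these libraries.

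Neat1 is transcribed from a single-exon region beside Malat1, another abundant nuclear RNA, and its long isoform is the scaffold on which paraspeckles assemble in the nucleus. These bodies hold RNA-binding proteins of the DBHS family (Sfpq, Nono and Pspc1) among many others, and they retain edited and inverted-repeat RNAs. Neat1 is known to be induced by hypoxia, by p53 and by other stresses. The Neat1 gene lies on chromosome 19 from 5824708 to 5845478 on the minus strand (mm10, GENCODE M21), where it is annotated as an intergenic long non-coding RNA. The counts combine its short and long isoforms, so none of the values below says how much of the scaffold isoform was present.

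Neat1 stood at 4307 CPM in metastasis 3-2, 4137 in 6-1, 4098 in 3-1, 3908 in 6-2, 3080 in 1-4, 1681 in 2-3 and 1678 in 1-2, the 7 libraries of the Neat1-high group. It stood at 1518 CPM in 1-1, 1253 in 5-x, 1232 in 2-4, 1196 in 1-3, 1117 in 2-2, 1058 in 2-1 and 754.1 in 4-1, the Neat1-low group. The group means were 3270 ± 1156 CPM (SD, n = 7) and 1161 ± 231 CPM (SD, n = 7), a ratio of 2.82. The border between the groups was narrow: the last library inside the Neat1-high group, 1-2, was 1.11 times the next one, 1-1. The widest step in the ranking lay higher, after rank 5, where 1-4 was 1.83 times 2-3. The same 7 libraries were highest with TMM factors of the metastases alone and with unscaled library totals.

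The groups followed the sets. All 4 metastases of sets 3 and 6 were Neat1-high, and the single metastases of sets 4 and 5 were Neat1-low. Set 1 had 2 metastases in each group, and set 2 had 1 high and 3 low. Differences between sets held 87% of the sum of squares of log2 Neat1 over the 14 libraries. Within sets 3 and 6 the libraries differed by 1.05 and 1.06 times, within set 2 by 1.59 times and within set 1 by 2.58 times. For sets 3, 4, 5 and 6 the level of Neat1 and the identity of the set cannot be told apart, and only sets 1 and 2 allow a comparison within a set.

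The primary tumours held less Neat1 than most metastases, with 473.1 CPM in P1, 400.1 in P2, 308.7 in P3, 1440 in P4, 811.6 in P5 and 1341 in P6. P3, whose metastases 3-1 and 3-2 were among the 3 highest, had the lowest Neat1 of all 20 libraries. P4 had the highest Neat1 of the primaries and its metastasis 4-1 the lowest of the metastases.

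**Figure D1:**
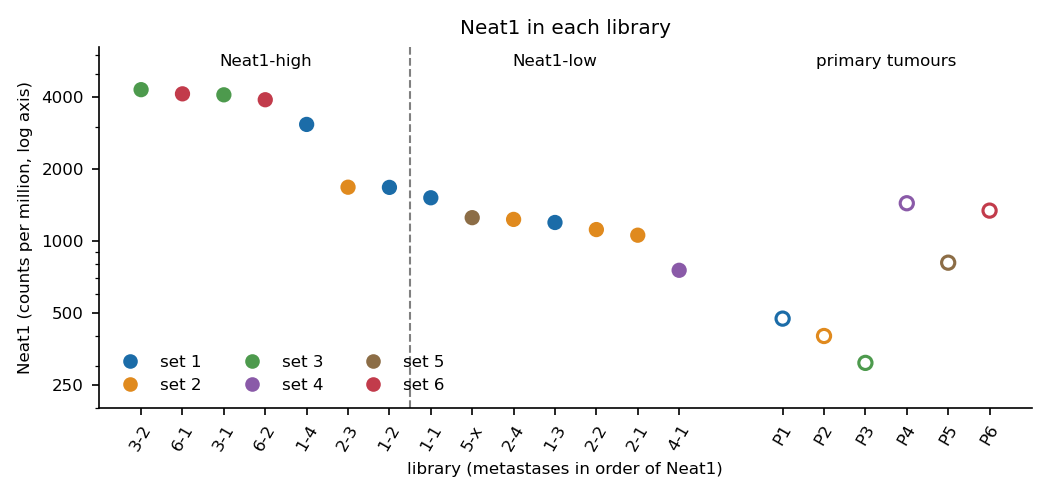
Neat1 in CPM on a log axis, one point per library, coloured by matched set, with the metastases in order of Neat1 on the left (filled points) and the primary tumours on the right (open points). The dashed line is the border between the 7 Neat1-high and the 7 Neat1-low metastases, and the 4 metastases of sets 3 and 6 lie together at 3908 CPM or more.

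Several libraries stood apart before any comparison. Total counts ran from 20603620 to 36824370 over the 20 libraries. Reads of the mitochondrial genome took 12.9% of metastasis 3-1, 8.22% of 4-1 and 7.93% of 3-2, against 1.81% to 4.18% of the other metastases. Metastases 3-2 and 4-1 were nearest to each other (r = 0.925 across genes) so 3-2 lay nearer to a metastasis of another set than to 3-1. The level of small structured RNAs such as Rmrp, a mean log2 CPM over 16 genes, was 2.62 in 3-2 and 1.58 in 4-1 against 3.79 to 4.90 in the other metastases. Of the 12 metastases in sets with several, 8 had their nearest metastasis inside the set. Sex-linked genes went against 1 label: P4 held Xist at 6070 CPM and the Y-linked gene Ddx3y at 0.427 CPM, while metastasis 4-1, which is matched with it, held Xist at 1.51 and Ddx3y at 189 CPM. Xist together with Y-linked genes appeared in 3-2 (Xist at 296 CPM, Ddx3y at 42.2 CPM) and 2-1 (Xist at 80.2 CPM, Ddx3y at 62 CPM). Where leaving out one of them moved a value by over 1.5 times, that value is given as well.

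Across the transcriptome, no gene passed the test between the groups. Of 17255 genes tested with edgeR's quasi-likelihood test, 0% had an adjusted p under 0.05 (Benjamini-Hochberg), and the smallest adjusted p was 0.387. At an unadjusted p under 0.05 there were 1133 genes on the higher side (6.57% of those tested) and 853 on the lower side (4.94%), and the median log2 fold change over all genes was -0.01. Every count of list members at that level below is to be read beside these shares. DESeq2 called 100 genes higher (0.58%) and 58 lower (0.336%), and limma voom called 0 in either direction. On simulated counts with the spread of these 14 libraries, but with independent libraries, the edgeR test recovered 28 of 47 genes changed 4-fold. It recovered 3 of 47 changed 2-fold, so in that simulation changes of 2-fold or less in single genes were mostly out of reach. Leaving out metastases 3-2 and 4-1 left 0 genes called, as did leaving out sets 3 and 6. Moving the border to the widest step, 5 metastases against 9, gave 51 genes higher and 0 lower in edgeR.

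A few genes separated the groups without overlap even though they did not pass the test. In 7 of the tested genes (0.0406%) every Neat1-high library lay above every Neat1-low library, and in 0 genes (0%) it was the reverse. These 7 were Nespas, Cyp11a1, Ago2, Cstad and the provisional models Gm37121, Gm37536 and Gm45493, named after their values were seen. With 17255 genes and 3432 ways to split 14 libraries into 7 and 7, a few genes can separate by chance alone. The count is thus no result about these genes. The p-values given for them below belong to genes picked for their separation and are no added support.

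Nespas is an antisense RNA of the imprinted Gnas locus, on chromosome 2 from 174281237 to 174295436. It lay at 5.88, 6.64, 5.56, 7.38, 5.23, 5.42 and 3.84 CPM in 3-2, 6-1, 3-1, 6-2, 1-4, 2-3 and 1-2, and at 2.16, 3.01, 3.43, 3.2, 3.01, 2.38 and 1.57 CPM in 1-1, 5-x, 2-4, 1-3, 2-2, 2-1 and 4-1. The lowest high-group library, 1-2, was just above the highest low-group library, 2-4. Its log2 fold change was 1.10 ± 0.254 (SE, n = 7 and 7, edgeR adjusted p = 0.387, DESeq2 adjusted p = 0.000563). The mean log2 difference was 0.76 in set 1 and 0.88 in set 2, whose sign the choice of non-overlapping genes fixed. The primaries ranged from 1.17 CPM in P1 to 8.92 CPM in P4, and P4 and P6, the primaries with most Neat1, held the most Nespas. Reads of Nespas and of Gnas on the other strand can be told apart only if the counting used strand, which is not given in the sources used here.

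Cyp11a1 encodes the mitochondrial side-chain cleavage enzyme that starts steroid synthesis, on chromosome 9 from 58006411 to 58027023. It was a rare transcript, with 11 to 81 reads per Neat1-high library and 4 to 8 reads per Neat1-low library. Only the Neat1-high libraries held the 10 reads asked for by the filter on low counts. The gene thus entered the test through that group alone, and its fold change and p-values are no support for a difference. In CPM it ran from 0.359 to 2.91 (median 0.893) in the Neat1-high group and from 0.111 to 0.264 (median 0.172) in the Neat1-low group, with 2-3, 6-1 and 6-2 highest. The log2 fold change was 2.70 ± 0.504 (SE, n = 7 and 7, edgeR adjusted p = 0.387, DESeq2 adjusted p = 0.00115). The order was not that of Neat1 itself, since 3-2 with the most Neat1 had 0.431 CPM and 2-3 near the border had 2.91. In the primaries it was at 1.96 CPM in P3, which had the least Neat1, and at 0.0672 CPM in P6 and 0 reads in P4, which had the most.

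Ago2 encodes the Argonaute protein that cuts RNA targets in RNA interference, on chromosome 15 from 73095844 to 73184935. It ran from 280 to 517 CPM (median 305) in the Neat1-high group and from 193 to 272 CPM (median 217) in the Neat1-low group. The highest value was that of 2-3, and the other 6 Neat1-high libraries lay between 280 and 347 CPM. The log2 fold change was 0.59 ± 0.173 (SE, n = 7 and 7, edgeR adjusted p = 0.387, DESeq2 adjusted p = 0.0586). Cstad stood at 5 to 24 reads per library and differed by a log2 fold change of 1.00 ± 0.297 (SE, n = 7 and 7, edgeR adjusted p = 0.387).

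**Figure D2:**
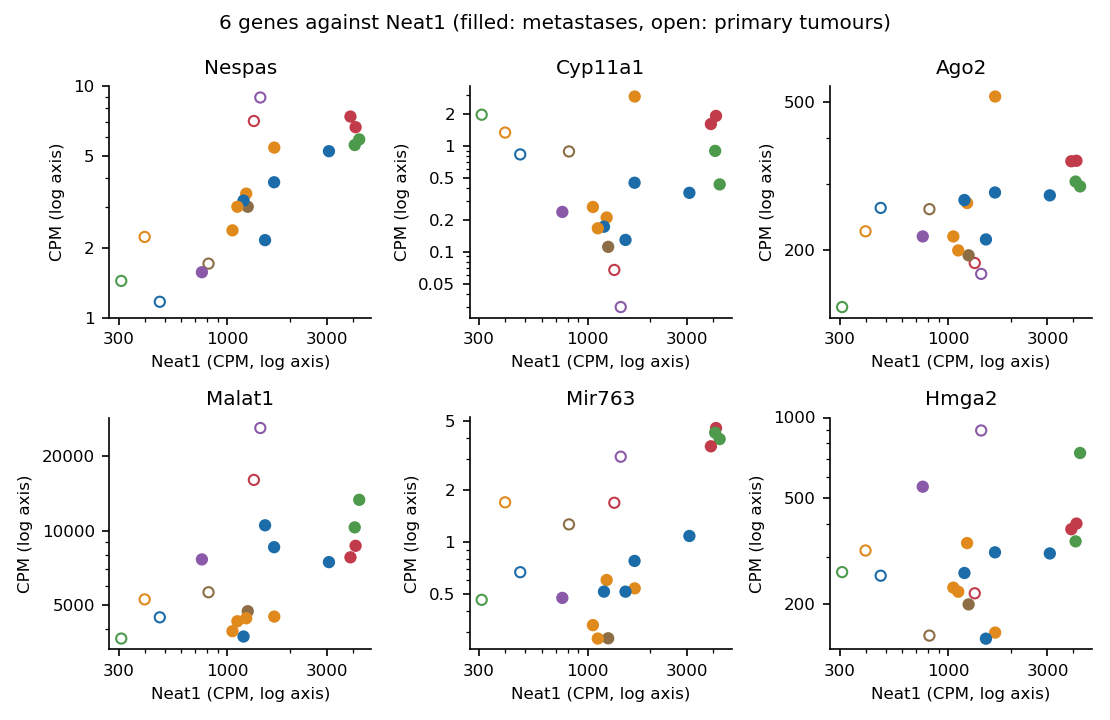
CPM of 6 genes (vertical, log axis) against CPM of Neat1 (horizontal, log axis), one point per library coloured by matched set as in the plot of Neat1 by library. Filled points are the 14 metastases and open points the 6 primary tumours, a value of 0 is drawn at 0.03, and among the metastases Nespas and Mir763 are highest in the 4 of sets 3 and 6.

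Genes of paraspeckles and of the nuclear RNA-processing machinery differed little. The DBHS proteins Sfpq, Nono and Pspc1, the core partners of Neat1, had log2 fold changes of 0.17 ± 0.227, -0.05 ± 0.205 and -0.03 ± 0.169 (SE, n = 7 and 7, edgeR adjusted p from 0.784 to 0.960). Pspc1 lay between 38.2 and 58.1 CPM in the Neat1-high and between 36.4 and 58.8 CPM in the Neat1-low group, ranges that almost coincide. Khsrp, an RNA-binding protein of AU-rich elements, had a log2 fold change of 0.02 ± 0.316. All 4 of these signs turned under some alternatives, as given in the closing section. Of 28 paraspeckle proteins tested, 0 passed the test and 0 had an unadjusted p under 0.05 in either direction, with a median log2 fold change of 0.11. Among the members of smallest p were Zc3h6 at 0.56 (0.28 without 3-2) and Cpsf7, a subunit of the cleavage factor of pre-mRNA 3' ends, at 0.28. The median was -0.03 without metastasis 3-2 and 0.25 without 4-1, so its sign rests on single libraries.

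Malat1, the neighbour of Neat1 on chromosome 19 (5795690 to 5802672), ran from 4500 to 13300 CPM (median 8570) in the Neat1-high group and from 3740 to 10500 CPM (median 4430) in the Neat1-low group. The groups overlapped, with 1-1 at 10500 CPM in the Neat1-low group and 2-3 at 4500 CPM in the Neat1-high group. The log2 fold change was 0.63 ± 0.303 (SE, n = 7 and 7, edgeR adjusted p = 0.440). With the set as a block it was 0.14. Of 22 SR proteins and their kinases and of 24 heterogeneous nuclear ribonucleoproteins, 0 had an unadjusted p under 0.05, with medians of 0.05 and 0.06. Without 3-2 these were -0.11 and -0.0548, and without 4-1 they were 0.24 and 0.29. Of 65 core spliceosome genes 1 was lower at that level and 0 higher, with a median of 0.00.

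Nuclear long non-coding RNAs other than Neat1 were spread in both directions. Of 26 tested, 0 passed the test and the median was 0.19, or 0.0134 without 3-2 and 0.36 without 4-1. At an unadjusted p under 0.05 there were 5 on the higher and 3 on the lower side, against 6.57% and 4.94% of all genes. Kcnq1ot1, the antisense RNA that silences the imprinted Kcnq1 domain, was at 253 CPM in 3-2, 156 in 6-1, 149 in 3-1, 147 in 6-2, 55.8 in 1-4, 17.6 in 2-3 and 45.1 in 1-2. In the Neat1-low group it lay between 32.3 and 78.5 CPM (median 40.4). The 4 metastases of sets 3 and 6 were thus above all others, and the remaining 3 Neat1-high libraries were inside the range of the Neat1-low group or below it. Its log2 fold change of 1.31 ± 0.465 (SE, n = 7 and 7, edgeR adjusted p = 0.394) became -0.37 with the set as a block. Jpx, an RNA that activates Xist, had a log2 fold change of 1.34 ± 0.458, and Mirg, a microRNA host of the imprinted Dlk1-Dio3 domain, one of -1.43 ± 0.533 with 5-x highest at 11.5 CPM, or -0.89 without 5-x.

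Genes of macrophages were the most even group on the lower side. None of the 32 tested passed the test, but 31 had a fold change below 0, and the median log2 fold change was -1.31 (all genes, -0.01). At an unadjusted p under 0.05, 17 were on the lower side and 0 on the higher, against 4.94% and 6.57% of all genes. Adgre1, the gene of the macrophage antigen F4/80, ran from 14.6 to 72.8 CPM (median 20.4) in the Neat1-high and from 20.6 to 133 CPM (median 95.6) in the Neat1-low group. Its log2 fold change was -1.56 ± 0.447 (SE, n = 7 and 7, edgeR adjusted p = 0.387). The chemokine receptor genes Ccr2 and Cx3cr1 had log2 fold changes of -2.14 ± 0.633 and -1.87 ± 0.568. That of Ccr2 was -1.20 without 4-1, which held 426 CPM against 131 or less in the other metastases. In the summed level of the list, a mean log2 CPM, the libraries 3-2, 6-1, 6-2 and 3-1 lay at 2.90, 3.25, 3.27 and 3.32, and 2-3, 1-2 and 1-4 at 3.88, 5.01 and 5.10. The Neat1-low libraries lay between 4.83 and 5.89 except 2-4 at 3.33, so the groups overlapped. The list median was -0.96 with the set as a block, -0.57 without sets 3 and 6, and -1.26 without 3-2 and 4-1. In bulk tissue, fewer macrophages and less RNA of these genes per cell cannot be told apart.

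Genes of the lung epithelium, which belongs to the host organ of the metastases, had the lowest median of all 44 lists. Of 37 tested, 35 lay below 0, with a median of -1.40 that was -0.62 without metastasis 1-1. At an unadjusted p under 0.05, 12 were on the lower side and 0 on the higher, against 4.94% and 6.57% of all genes. In edgeR 0 passed the test, and DESeq2 called 7 lower, against 0.336% of all genes. Sftpc, the surfactant protein of alveolar type II cells, was at 2140 CPM in 1-1, 4710 in 5-x, 1720 in 2-2 and 1410 in 2-1, all Neat1-low, and at 81.8 CPM or less in the other 10 metastases. The 3 remaining Neat1-low libraries, 2-4, 1-3 and 4-1, held 0.361, 34.7 and 75.3 CPM, so Sftpc was high in 4 libraries and not in the whole group. Lamp3 of the same cells was also high in 4-1, at 188 CPM, and had a log2 fold change of -5.04 ± 1.28, and Lpcat1, an enzyme of surfactant lipid synthesis, one of -1.44 ± 0.373 (SE, n = 7 and 7, edgeR adjusted p = 0.387 for both). The summed level of the list lay between 1.72 and 4.50 in the Neat1-high and between 0.81 and 6.80 in the Neat1-low group (exact two-sided permutation test of the means, p = 0.221, adjusted p = 0.540 over 8 library measures). Metastases 2-4 and 2-3 held almost no Sftpc, at 0.361 and 2.08 CPM, so these libraries labelled as lung metastases had little or no RNA of that lung cell.

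Lists of lung endothelium and mesenchyme and of general endothelium were also on the lower side. Neither is particular to lung in these data. The level of the first was 3.36, 3.63 and 3.72 in P1, P2 and P3, near the 3.78 of metastases 3-1 and 3-2, though -0.68 in P4 and -0.31 in P6. For lung endothelium and mesenchyme 29 of 30 tested genes lay below 0, with a median of -0.99 and 4 lower at an unadjusted p under 0.05. The members of smallest p were Aplnr, the apelin receptor, at -1.79 ± 0.469, the semaphorin Sema3c at -1.03 ± 0.389 and the lymphatic growth factor Vegfd at -1.11 ± 0.449. Aplnr had 2261 and 2865 reads in P2 and P3, against 817 or fewer in each metastasis. For general endothelium 24 of 27 lay below 0, with a median of -0.75 and Cd34, Ly6c1 and Mmrn2 at -1.14, -1.20 and -0.85. Without metastasis 1-1 alone the 2 medians were -0.08 and -0.09, with Vegfd at -0.60 and Ly6c1 at -0.72. Without all of set 1 the medians were -0.45 and -0.56, and without 1-1 and 1-2 (ranks 8 and 7) they were -0.39 and -0.47. With the lung epithelium level as a covariate the median of lung endothelium and mesenchyme was -0.04 and that of macrophages -0.76. That of the epithelial list was -0.02, a value fixed near 0 because the covariate is the mean of that same list. The part of residual lung in these differences was not tested.

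Genes of B and plasma cells were on the lower side as well, by an amount that differed between fits. Of 19 tested, 15 lay below 0, with a median of -1.13, and 2 were called lower by DESeq2 (0.336% of all genes). At an unadjusted p under 0.05, 9 were on the lower side and 0 on the higher, against 4.94% and 6.57% of all genes. The median was -0.18 with the lung epithelium level as a covariate, -0.39 with limma voom and -0.75 without metastasis 1-1. The immunoglobulin heavy-chain genes Ighg2b and Ighg2c had log2 fold changes of -3.69 ± 0.986 and -3.64 ± 1.22, and Mzb1, an endoplasmic reticulum protein of plasma cells, one of -2.17 ± 0.728 (SE, n = 7 and 7, edgeR adjusted p = 0.387 for each). Ighg2c was at -2.39 without 1-1. Ighg2b ran from 0.323 to 6.76 CPM in the Neat1-high and from 0.902 to 103 CPM in the Neat1-low group. It had 3198 reads in 1-1 and 2599 in 5-x, against 919 or fewer in each other metastasis. Outside the list, 54 immunoglobulin variable-segment genes had a median of -2.52, and 40 of them were lower at an unadjusted p under 0.05 (4.94% of all genes). The part of single libraries in this was not tested. These segments are near-identical in places, and the counting may have split their reads.

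Muscle genes were on the higher side, with 2 libraries far above the others. Of 40 skeletal muscle genes tested, 36 lay above 0, 0 passed the test, and the median was 1.93. At an unadjusted p under 0.05, 10 were on the higher side and 0 on the lower, against 6.57% and 4.94% of all genes. Ttn, the giant spring protein titin of the sarcomere, was at 6770 CPM in 2-3 and 5000 in 3-1, and between 30.2 and 1110 CPM in the other 5 Neat1-high libraries. In the Neat1-low group it lay between 114 and 949 CPM. The troponin gene Tnnt1 and the calsequestrin gene Casq2 had log2 fold changes of 3.04 ± 1.22 and 2.56 ± 1.01, with 2-3 highest at 115 and 316 CPM, and were 1.34 and 1.27 without 2-3. The fitted fold changes follow the arithmetic mean, and on the mean log2 scale the list lay at 2.33 ± 2.26 in the Neat1-high and 1.79 ± 1.29 in the Neat1-low group (SD, n = 7 each, exact two-sided permutation test, p = 0.585). Without metastasis 2-3 the list median was 0.82, and that of myogenic regulators, described next, was 0.71.

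Myogenic regulators had a median of 1.44, with 4 of 22 higher at an unadjusted p under 0.05. The fusion protein gene Mymk lay at 3.63 ± 1.55 and the myogenic factor Myog at 3.65 ± 1.56 (SE, n = 7 and 7, edgeR adjusted p of 0.409 and 0.410). Mymk and Myog reached 177 and 355 CPM in 2-3, without which they lay at 1.98 and 1.69. When the 5 metastases above the widest Neat1 step were set against the other 9, which puts 2-3 on the lower side, the medians were -0.35 for skeletal muscle and 0.04 for myogenic regulators.

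**Figure D3:**
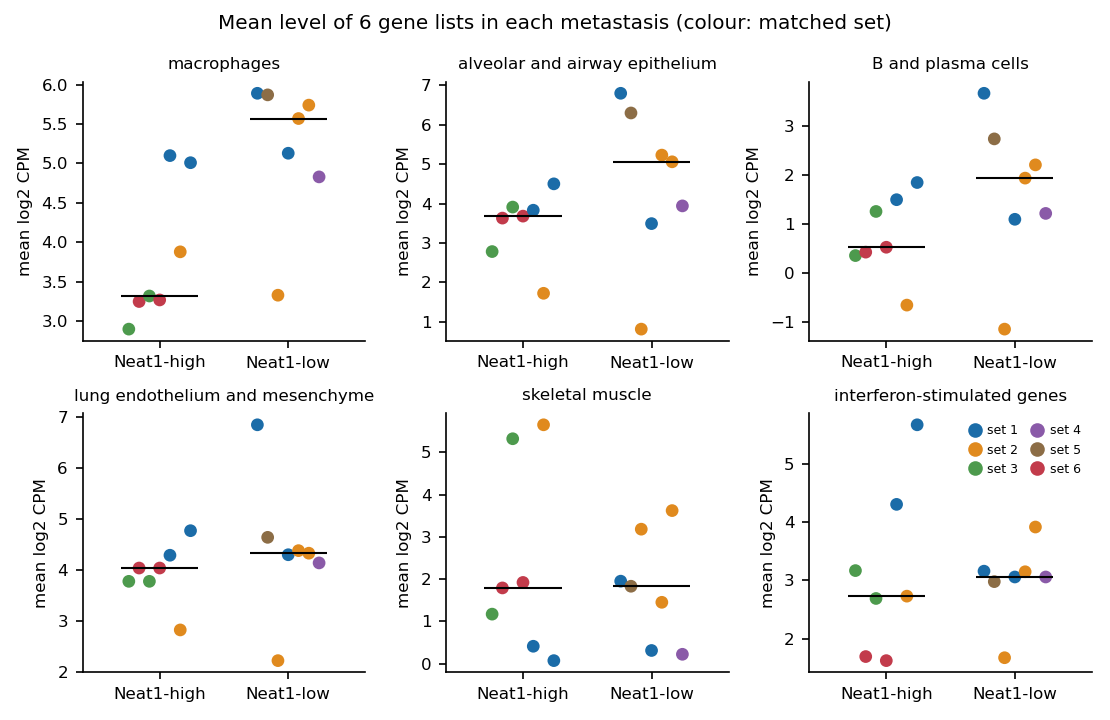
Mean log2 CPM of 6 gene lists (vertical) in each of the 14 metastases, split into Neat1-high and Neat1-low, with points coloured by matched set and a bar at the median of each group. The macrophage level separates most Neat1-low libraries from the metastases of sets 3 and 6, and the muscle level is set by 3-1 and 2-3.

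Interferon-stimulated genes were on the higher side in set 1. Of 41 tested, 37 lay above 0 with a median of 0.77, 5 had an unadjusted p under 0.05 on the higher and 1 on the lower side, and 0 passed the test. The antiviral gene Mx2 was highest in 1-2 at 24.1 CPM, and the signalling gene Stat2 reached 64.7 CPM in the same library. Their log2 fold changes were 1.70 ± 0.586 and 0.77 ± 0.277, while the chemokine gene Cxcl9 had one of -1.85 ± 0.780 (SE, n = 7 and 7, edgeR adjusted p from 0.387 to 0.404). The mean level of the list was 5.68 in 1-2 and 4.31 in 1-4, against 1.62 to 3.17 in the other Neat1-high and 1.67 to 3.92 in the Neat1-low libraries. The list median was -0.58 without set 1 and -0.04 without metastasis 1-2 alone, where Mx2 was at 1.07 and Stat2 at 0.47. With the set as a block it was 1.09, and 11 of the 41 genes were then higher at an unadjusted p under 0.05.

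Genes of hypoxia and p53, which are known to induce Neat1, had medians near that of all genes. Of 33 hypoxia and glycolysis genes, 0 passed the edgeR test and the median was 0.10, or -0.13 without 1-2. Those with an unadjusted p under 0.05 numbered 4 on the higher and 0 on the lower side, against 6.57% and 4.94% of all genes. Egln3 and Ankrd37, both targets of hypoxia-inducible factors, had log2 fold changes of 0.71 ± 0.253 and 0.68 ± 0.263. Gapdh, a glycolytic enzyme, ran from 16.5 to 38.6 CPM (median 29.7) in the Neat1-high and from 3.53 to 25.4 CPM (median 10.3) in the Neat1-low group, a log2 fold change of 1.29 ± 0.345 (SE, n = 7 and 7, edgeR adjusted p = 0.387, DESeq2 adjusted p = 0.0275). Gapdh has many near-identical pseudogenes, and its low level here may reflect how reads were shared among copies, so its value is uncertain. Of 28 p53 targets 1 had an unadjusted p under 0.05 in each direction, with a median of -0.12 (-0.0157 without 4-1).

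Extracellular matrix and growth genes gave smaller medians. Of 38 fibrillar collagen and matrix genes 4 were lower and 0 higher at an unadjusted p under 0.05, with a median of -0.32 that was 0.01 with the set as a block, -0.54 without 1-2 and -0.21 without 1-3. The matricellular gene Postn had a log2 fold change of -1.62 ± 0.492, the protease gene Ctsk one of -1.65 ± 0.608 and the microfibril gene Mfap5 one of -2.03 ± 0.767. Of 50 cell cycle genes 3 were higher and 0 lower, a share near that of all genes on the higher side (6.57%), with a median of 0.19 that was 0.04 without 3-2. E2f8, Mcm3 and Foxm1 lay at 0.65, 1.66 and 1.27, and Mcm3 at 0.54 without 2-3. Of 22 genes of mitogen-activated kinase output 3 were higher and 1 lower, with a median of 0.30 (0.19 without 3-2) and the feedback genes Dusp7, Phlda1 and Dusp4 at 0.75, 1.25 and 0.95. None of the genes in these 3 lists passed the test.

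**Figure D4:**
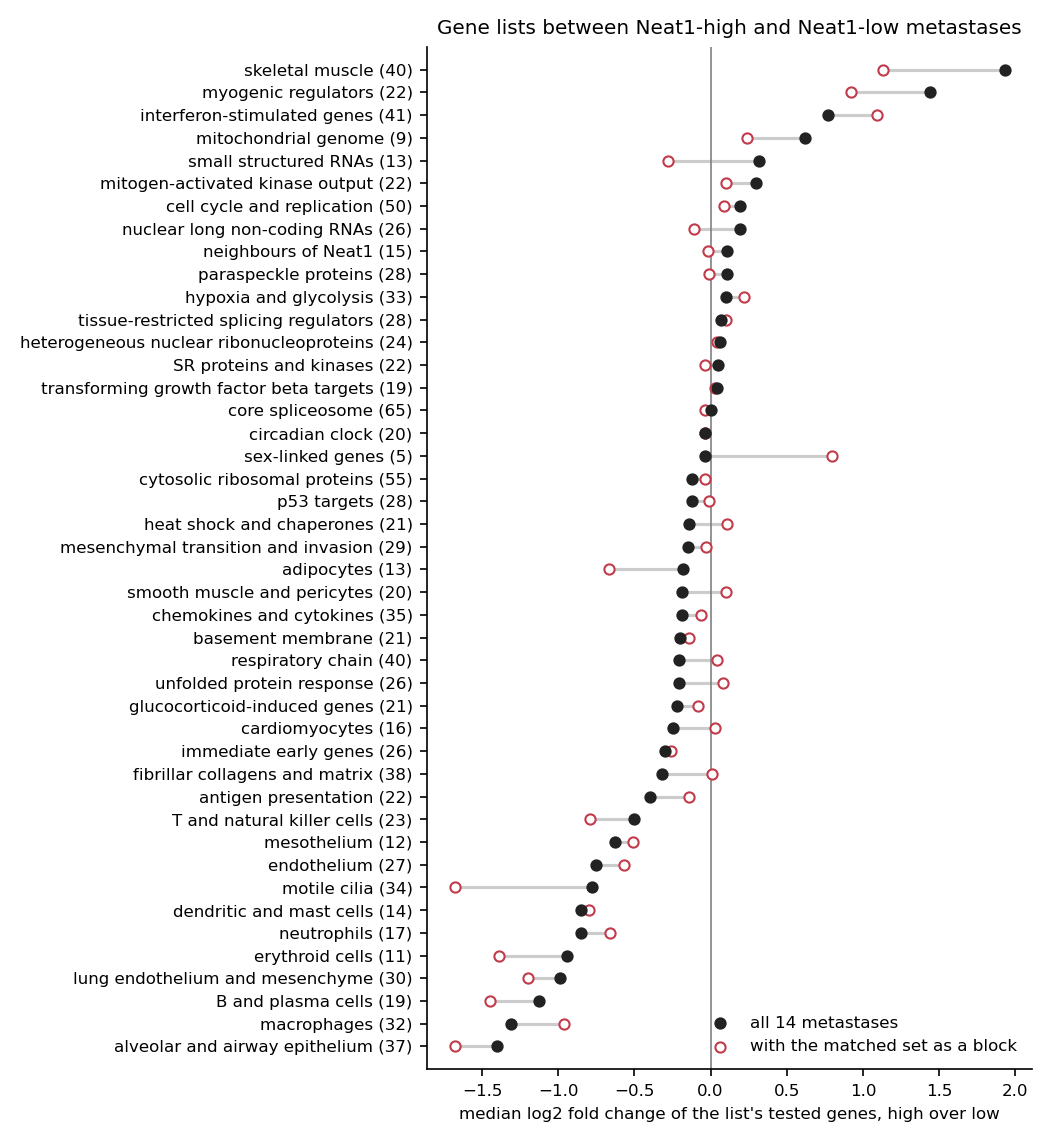
Median log2 fold change of the tested genes of each of 44 lists between Neat1-high and Neat1-low metastases (horizontal), with the number of genes tested in parentheses. Filled points use all 14 metastases and open points the fit with the matched set as a block. Muscle lists lie highest at 1.93 and 1.44, and lung epithelium and macrophages lie lowest at -1.40 and -1.31.

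Within sets a smaller share of genes reached an unadjusted p under 0.05, in a fit that fewer libraries inform. The smaller share is thus no sign that the differences were fewer. With the set as a block, which compares only inside sets 1 and 2, 0 genes passed the test and 3.6% of genes had an unadjusted p under 0.05, 336 higher and 286 lower. Lung epithelium kept a median of -1.68 and B and plasma cells one of -1.45 in this fit. In both lists the groups overlapped inside both sets. The lung level was 3.49 in Neat1-low 1-3 against 3.83 and 4.50 in Neat1-high 1-4 and 1-2, and 0.81 in Neat1-low 2-4 against 1.72 in Neat1-high 2-3. The B and plasma cell level was 1.09 against 1.49 and 1.84, and -1.15 against -0.66, in the same libraries. Neat1-low 1-1, 2-1 and 2-2 lay above the Neat1-high libraries of their sets in both lists. In set 1 the macrophage level was 5.10 and 5.01 in the Neat1-high metastases 1-4 and 1-2 against 5.89 and 5.13 in the Neat1-low metastases 1-1 and 1-3. In set 2 it was 3.88 in the Neat1-high metastasis 2-3 against 3.33, 5.57 and 5.74 in 2-4, 2-2 and 2-1. For macrophages the groups did not overlap in set 1, where 1-4 and 1-3 nearly touched, and they overlapped in set 2.

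The level of Neat1 itself was then used in place of the groups. The slope of a gene is its change on the log2 scale for each doubling of Neat1 over the 14 metastases. By this measure 52 of the 17255 genes rose with Neat1 (0.301%) and 1 fell (0.0058%). These calls, and every adjusted p for a slope given below, treat the 14 libraries as independent: with the matched set as a block or as a random effect, 0 genes were called in either direction. The gene that fell was Siglech, a surface lectin of plasmacytoid dendritic cells, with a slope of -1.46 ± 0.283 (SE, n = 14, edgeR adjusted p = 0.0470). It had 3 to 26 reads per Neat1-high library and 8 to 104 reads per Neat1-low library, with 4-1 highest. Since the slope uses the same Neat1 values as the groups, it is no independent support for them.

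The genes that rose were mostly not messenger RNAs. Only 4 of the 52 were protein-coding, and 45 carried provisional symbols. By the GENCODE M21 annotation 44 of them lay wholly inside an intron of a protein-coding gene on the same strand, a position held by 5.98% of all genes tested. Of these, 8 lay in introns of Maml3, a coactivator of Notch signalling, and 3 each in Med13l, of the Mediator kinase module, and in Pdzrn3. None of the hosts of the 44 passed the test. Their slopes ran from -0.80 to 1.08 (median 0.34, counting a host once per model, so Maml3 8 times). All 44 models had a slope above that of the host, which was nearly fixed because the models were called for steep slopes. This look at position was chosen after the genes had been seen.

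The clearest single case was Gm38055, a provisional model in an intron of Maml3 (chromosome 3, 51987631 to 51989847). It was at 8.03, 8.39, 8.53 and 8.63 CPM in 3-2, 6-1, 3-1 and 6-2, then at 2.48 in 1-4, 2.05 in 2-3 and 1.67 in 1-2. The Neat1-low group lay between 1.21 and 1.71 CPM. The 4 metastases of sets 3 and 6 were thus set off from all others, and 1-2 overlapped the Neat1-low group. Its slope was 1.22 ± 0.150 per doubling (SE, n = 14, edgeR adjusted p = 0.00615), while Maml3 had one of 0.34 (adjusted p = 0.194).

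The only named microRNA among them was Mir763, whose hairpin lies in an intron of Hmga2, a chromatin protein gene active in embryos and mesenchymal tumours. The hairpin spans chromosome 10 from 120447991 to 120448110 on the minus strand. Its mature sequence is shown from RefSeq (GRCm38.p6), 5′ to 3′, with the seed (bases 2 to 8) in capitals, because it is the only microRNA among the genes that rose.
mmu-miR-763: cCAGCUGGgaagaaccaguggc
Counts at the hairpin were 3.92, 4.54, 4.27 and 3.56 CPM in 3-2, 6-1, 3-1 and 6-2, 1.08 in 1-4, 0.538 in 2-3 and 0.775 in 1-2, and between 0.276 and 0.601 CPM in the Neat1-low group. These are 86 to 143 reads in the libraries of sets 3 and 6 and 10 to 33 in the others. The slope was 1.57 ± 0.195 (SE, n = 14, edgeR adjusted p = 0.00615), and that of Hmga2 was 0.24 (adjusted p = 0.503). Hmga2 itself ran from 156 to 736 CPM in the Neat1-high and from 148 to 550 CPM in the Neat1-low group. Reads of the hairpin and of unspliced Hmga2 RNA cannot be told apart in these counts, so the values say nothing of the mature microRNA.

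The 4 coding genes that rose were Pcdhgb5, Pcdhga8, Pcdhga9 and Pcdhga12, neighbouring isoform genes of the clustered gamma protocadherins, which are adhesion proteins. Their slopes were 0.77, 0.66, 0.72 and 0.75 per doubling (edgeR adjusted p from 0.0444 to 0.0470). They share their last exons, and no source used here says how the counting divided the shared reads, so the 4 are not independent. In the primary tumours their slopes were -0.50, -0.91, -0.68 and -1.17. Snord71, a small nucleolar RNA in an intron of Ap1g1, had a slope of 1.25 (adjusted p = 0.0470) on 2 to 62 reads per metastasis.

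The same pattern held across the class of intron models and not only in those called. Of the genes tested, 678 were provisional models of the annotation class for transcripts still to be verified that lay inside an intron of a coding gene on the same strand. The 678 include 36 of the models called. Rare models could pass the filter on low counts mainly through Neat1-high libraries, so the shares below are a description. Of these 97.2% had a positive slope with a median of 0.60 per doubling, against 47.4% and -0.02 over all genes. Between the groups their median log2 fold change was 0.96, and 329 on the higher and 0 on the lower side had an unadjusted p under 0.05. Over all genes these shares were 6.57% and 4.94%. The intron models made up 59 of the 100 genes that DESeq2 called higher, and 3.93% of all genes tested. Of 676 models with a tested host, 667 had a slope above that of the host. The hosts' median slope, counting a host once per model, was 0.00.

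By library, the 678 intron models took 0.3%, 0.214%, 0.239% and 0.196% of the counts in 3-2, 6-1, 3-1 and 6-2. In 1-4, 2-3 and 1-2 they took 0.102%, 0.0777% and 0.101%. The Neat1-low libraries held 0.0588% to 0.0684% except 1-1 at 0.158% and 4-1 at 0.150%. The libraries of sets 3 and 6 were thus above all others, while 1-1 and 4-1 in the Neat1-low group exceeded 3 libraries of the Neat1-high group. The mean log2 CPM of the models ran from -0.66 to 1.55 over the metastases, and that of their 446 distinct hosts only from 5.80 to 6.14. The mitochondrial share was highest in 3-1, 3-2 and 4-1, of which 3-2 and 3-1 were also the highest in these models, and its part in the pattern was not tested. The difference between the groups rested on sets 3 and 6: the median log2 fold change of the models was 0.08 without those sets, 0.53 without set 3 alone and 0.12 with the set as a block.

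**Figure D5:**
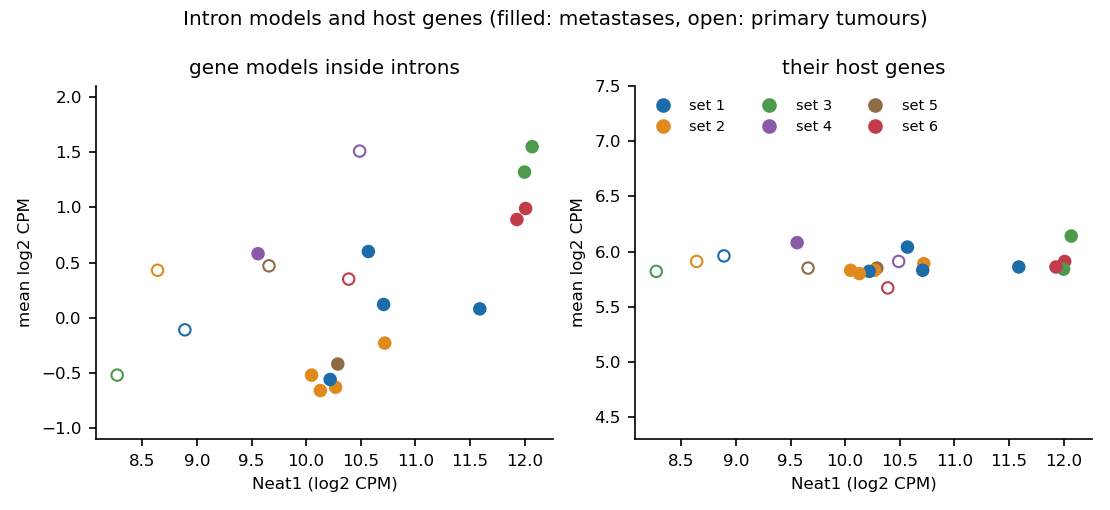
Mean log2 CPM of 678 provisional gene models inside introns (left) and of their 446 host genes (right) against log2 CPM of Neat1, drawn over axes of equal span, with filled points for metastases and open points for primary tumours, coloured by set. The models reach 0.89 to 1.55 in the 4 metastases of sets 3 and 6, while the hosts stay between 5.67 and 6.14 in all 20 libraries.

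The count of genes with a slope depended strongly on single sets and libraries. With the set as a block, or as a random effect, it was 0 in both directions, and the median slope of the intron models was 0.29 with the block. Without set 1, set 3 or set 6 the count was 0. Without metastasis 4-1, the only one of set 4, it was 950 higher and 235 lower, without 1-4 it was 261 higher and 276 lower, and without 2-4 it was 453 and 254. Without 3-2 and 4-1 together it was 547 higher and 85 lower. With sets or libraries left out, the median slope of the intron models lay between 0.36 (without set 3) and 0.94 (without set 4).

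Likeness to Neat1 was also ranked over the 14 metastases among genes with established symbols and a mean log2 CPM of at least 2, as a description. Among the highest Spearman correlations were those of Ppp4r1l-ps (0.88), a pseudogene, Dst (0.83), a cytoskeletal linker, Gpatch2 (0.83) and Srgap1 (0.82). The lowest were those of Enoph1 (-0.92), of methionine salvage, the amino acid transporter Slc7a3 (-0.89), Hacd2 (-0.88), of fatty acid elongation, the tubulin Tuba1a (-0.88) and Armcx2 (-0.85). Ppp4r1l-ps lay at 13.1 to 23.8 CPM in the Neat1-high and 7.11 to 13.9 CPM in the Neat1-low group, with slope 0.49 (edgeR adjusted p = 0.0635). Tuba1a lay at 104 to 230 and 180 to 343 CPM, with slope -0.49 (edgeR adjusted p = 0.0680). These libraries share sets, so the 14 points are not independent.

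The 6 primary tumours, which played no part in forming the groups, gave no gene with a slope on Neat1: 0% of 17078 genes passed the edgeR test, and 2470 had a positive and 1401 a negative slope at an unadjusted p under 0.05. Without P5, 600 genes had a positive and 1794 a negative slope at an adjusted p under 0.05, so the count of 0 rested on that library. The primaries P4 and P6, with the most Neat1, also had the lowest macrophage level (-0.89 and 0.36, against 4.79 to 5.31 in the other 4) and the lowest muscle level, so Neat1 and the content of host cells cannot be told apart there. Of 50 slope genes present in both fits, 35 had the same sign in the primaries, or 70% against 58.4% of 16188 genes. At an unadjusted p under 0.05 there were 9. The intron models had a median slope of 0.79 in the primaries, against -0.06 over all genes. Their mean level was 1.51 in P4, the primary with the most Neat1. In P6, next in Neat1, it was 0.35, below P2 at 0.43 and P5 at 0.47, which held less Neat1. Over all 20 libraries the slope differed between metastases and primary tumours in 535 of 18451 genes (2.9%, edgeR interaction test, adjusted p under 0.05). Pspc1 was among them, with a slope of -0.07 in the metastases and 0.73 in the primaries (adjusted p = 0.0340).

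No property of the libraries separated the groups by the exact permutation test over all 3432 splits, whose smallest possible p is 0.000583. Total counts came closest, with means of 28560000 in the Neat1-high and 32470000 in the Neat1-low group (two-sided p = 0.0571, adjusted p = 0.457 over 8 measures). The mitochondrial share was 5.19% ± 3.90 against 3.18% ± 2.25 (SD, n = 7 each, permutation p = 0.206), and it was set by 3-1, 3-2 and 4-1. The cell cycle level was 5.48 ± 0.673 against 5.31 ± 0.452 (permutation p = 0.579). The level of T and natural killer cell genes was low in both groups, at -1.09 ± 0.279 against -0.71 ± 0.851 (permutation p = 0.270).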

How the data were processed

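Total RNA of 20 mouse tumours was measured by RNA-seq. Per the labels' protocols, a Direct-zol kit was used to extract RNA, and stranded libraries followed ribosomal depletion with Ribo-Zero Gold. Per the submitters' processing notes, Trimmomatic 0.36, STAR (version string 5.5.4b) and HTSeq were used with mm10, and no source used here names the annotation release or the strand setting. The authors deposited raw read counts, whole numbers without scaling, for 51826 genes in 20 libraries, of which 51633 genes had a symbol.

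From these counts, TMM factors over the 20 libraries gave CPM (prior count 2 on the log2 scale). Genes with low counts were left out by filterByExpr (minimum count 10). The 7 metastases with most Neat1 were compared with the other 7 by edgeR 4.0.16 in R 4.3.3 (robust quasi-likelihood test, Benjamini-Hochberg over all 17255 genes, threshold 0.05), with Neat1 left out of the tests and no covariate. DESeq2 1.42.0 and limma 3.58.1 were alternatives, with the fits of the closing section. The matched number in the titles pairs libraries of a set: after subtracting group means over 1000 variable genes, same-set libraries correlated at 0.21 on average (14 pairs) and others at -0.106 (77 pairs), but the lowest same-set pair was at -0.595, so the pairing comes from the titles and not from the data. The test was tried on simulated data, where it called 0 genes when none was changed and 35 of 47 changed 8-fold. In the run with changed genes it also called 2 unchanged genes. The simulated libraries were independent and their groups did not follow sets. The simulation therefore does not measure error or power for groups that follow the sets, as here. Library measures used exact two-sided permutation tests. The closest libraries, 6-1 and 6-2 (r = 0.995), differed by more than counting error (17484 genes, chi-square divided by its degrees of freedom 29.3), which does not show that they are separate samples. They were kept as 2 because the labels list them so.

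The members, gene lists and rules were chosen with earlier results of these data known. The rule named Neat1, Malat1, Sfpq, Nono, Pspc1 and Khsrp, up to 8 genes past the threshold by size and by p in each direction (none passed), the 3 genes of smallest p in each list, and the 5 genes of highest and 5 of lowest correlation with Neat1 (mean log2 CPM of at least 2, symbol not provisional), of which a few are not reported here. Genes with non-overlapping groups and genes with a slope were named after their values were seen. Positions and classes come from GENCODE M21 (GRCm38). The total of each library, from 20603620 to 36824370 counts, sets the counting precision, and intervals other than the fitted standard errors were not computed.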

Additional observations from a re-analysis of the deposited data

Results flagged for a closer look

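In groups of 7, a library was singled out where its gap to the nearest other took most of the group's range (Dixon's test at the 95% level). Of 163 values tested 40 were singled out. Chance gives about 1 in 20 groups only for independent, normally distributed values. These genes share libraries and many were picked for a small p, so the count does not measure an excess. Metastasis 2-4 stood above the other Neat1-low libraries in Cpsf7 (89.6 CPM), Casq2 (35.6), Tnnt1 (13.1), Mymk (14.8), Myog (27.7), Gapdh (25.4), Ankrd37 (14.6), Foxm1 (70.1), Dusp7 (50.6), Dusp4 (133) and Gm36938 (0.571), and below them in Adgre1 (20.6 CPM). Metastasis 2-3 stood above the other Neat1-high libraries in Casq2 (316 CPM), Tnnt1 (115), Mymk (177), Myog (355), Mcm3 (1010), Ago2 (517) and Siglech (0.933). Both belong to set 2.

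Metastasis 3-2 was high in Sfpq (496 CPM), Zc3h6 (63.6) and Hmga2 (736) and low in Khsrp (42.5) and Enoph1 (8.85). Metastasis 4-1 was high in mitochondrial share (8.22%), Sfpq (395 CPM), Ccr2 (426) and Pcdhgb5 (8.03). In 3-1 the 50 most abundant genes took 32.8% of counts. Metastasis 1-2 was high in Mx2 (24.1 CPM), Stat2 (64.7) and Cxcl9 (4.08), 1-4 in Cx3cr1 (71.8) and Postn (351), and 1-3 in Enoph1 (20.2). Metastasis 1-1 was high in Ighg2c (175 CPM), Vegfd (46.7) and Ly6c1 (218), and 5-x in Mirg (11.5) and Lpcat1 (301).

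The slope on Neat1 differed between metastases and primary tumours for 7 of the genes named (edgeR interaction test, adjusted p under 0.05). The slope in metastases minus that in primaries was -0.84 for Pspc1, -1.85 for Ankrd37, -0.69 for Armcx2, 1.57 for Srgap1, 1.54 for Pcdhga8, 1.36 for Pcdhga9 and 1.88 for Pcdhga12.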

How the results depend on the processing

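The count of 0 genes between the groups held in edgeR with another scaling, no filter, either covariate, set as a block, and each library or set left out. It also held in limma voom, both without the set and with the set as a random effect. DESeq2 gave 100 higher and 58 lower, Neat1 as a continuous measure 52 and 1, and 5 metastases against 9 gave 51 higher. The cause of these differences was not tested.

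Slope counts (52 higher, 1 lower) became 0 and 0 with the matched set as a replicate block or random effect and without set 1, set 3 or set 6. They were 30 and 0 with median-of-ratios scaling, 52 and 2 with limma voom, 5 and 0 with no filter, 81 and 11 without set 2, 950 and 235 without set 4, 4 and 0 without set 5, and 547 and 85 without 3-2 and 4-1. With each metastasis left out they ran from 2 (without 1-3 or 3-1) to 950 (without 4-1) higher and from 0 to 276 (without 1-4) lower. Over primaries they ran from 0 to 600 higher and from 0 to 1794 lower, both highest without P5. The causes were not tested.

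Log2 fold changes turned sign as follows. With the replicate block Sfpq was -0.0739, Pspc1 0.16, Khsrp -0.0297, Kcnq1ot1 -0.37, Srgap1 -0.0071, Pcdhga12 -0.0760 and Snord71 -0.0691. With Neat1 continuous Nono was 0.0272, and with the block added Nono was 0.10, Pspc1 0.12 and Khsrp -0.14. Without sets 3 and 6 Sfpq was -0.18, Pspc1 0.0584, Zc3h6 -0.0580, Jpx -0.0169, Kcnq1ot1 -0.29 and Hmga2 -0.13. With 5 against 9 Nono was 0.10, Khsrp -0.0861, Casq2 -0.39, Tnnt1 -0.88, Mymk -0.72, Myog -1.11 and Mcm3 -0.54. Sfpq was -0.0653 without set 3, Nono 0.21 without set 2 and 0.0186 with summed libraries. Pspc1 was 0.0175 with the random effect, 0.0331 without set 4, 0.0903 without set 6 and 0.0172 without 3-2 and 4-1. Khsrp was -0.0154 with no filter, -0.0033 without ranks 7 and 8, -0.0252 with the muscle covariate, -0.15 without set 4 and -0.0427 without set 6. With each library left out, Sfpq ran from -0.0393 to 0.33, Nono from -0.14 to 0.0910, Pspc1 from -0.0879 to 0.0331 and Khsrp from -0.15 to 0.16. The TMM factor difference was -0.0039 without set 1, -0.0017 without set 4 and -0.0302 without set 6, and the mitochondrial difference was -0.0841 without set 3. The block changed no other call.

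Rare transcripts such as Cyp11a1 and Siglech rest on few reads per library.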
